A study of Mus musculus with 9 samples.

Results

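The folding and translocation machinery of the endoplasmic reticulum is described here by 37 genes chosen by name: 3 sensors or their transcription factors, 10 chaperones of the Hsp70 and Hsp90 systems and their partners, 5 disulfide isomerases, 2 lectin chaperones, 8 degradation genes, 7 genes of the translocon and signal peptidase, and 2 genes of the COPII coat. A member had to stand in both deposited tables with a mean of at least 10 normalised reads in each. All 37 listed genes met this rule, out of 12477 genes that met it in all. The data are RNA sequencing of liver from C57BL/6 mice in 3 groups of 3 samples. The normal group, labelled wild type, received saline. The model group received a methionine-choline-deficient (MCD) diet, which withholds nutrients required for fat export from the liver and serves as a rodent model of steatohepatitis. The third group received the MCD diet and a high dose of sarsasapogenin (SAR), a steroidal sapogenin of Anemarrhena rhizome. The amount of SAR, the length of the diet and the age and sex of the mice are not stated in the labels, nor is any vehicle for the model group. No label ties samples to separate mice, so a p-value here covers the spread between samples only, and that spread may be technical.

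Proteins made for secretion enter the endoplasmic reticulum through the Sec61 channel, lose their signal peptide, and fold with the help of chaperones, disulfide isomerases and the lectins that bind their glycans. Proteins that fail to fold are drawn back to the cytosol and degraded, and those that fold leave in COPII vesicles. The sensors Ire1 (Ern1), Atf6 and Perk (Eif2ak3) watch over this balance and raise chaperone and degradation genes in the unfolded protein response. Hepatocytes depend on it because they secrete most plasma proteins.

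Letters shared by promoters of the members are shown first, because the cleaved form of Atf6 is known to act through the ER stress response element (ERSE), with the factor NF-Y bound at its CCAAT box. RefSeq promoter windows of GRCm38.p6, from 250 bases before to 50 bases after a gene's start, were at hand for 30 of the 37 members. The 7 without one were Atf6, Hyou1, Manf, Derl1, Sec61a1, Ssr2 and Sec11c. Both strands were searched for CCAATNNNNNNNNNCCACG (ERSE) and ATTGGNCCACG (ERSE-II). The first stood in 9 of 30 members and in 37 of 27025 genes with a window (0.137%), and the second in 2 of 30 members and in 12 genes (0.0444%). Motifs and members were both chosen as known parts of the unfolded protein response, so these shares are no test of an excess. The elements of 5 members whose transcripts fell in the model group, of 1 member that did not pass there (Syvn1) and of both ERSE-II members are printed from 5′ to 3′ on the strand that carries the motif, with the matched letters in capitals.
Hspa5: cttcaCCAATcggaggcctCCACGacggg
Hsp90b1, upstream: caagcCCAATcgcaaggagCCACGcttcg
Hsp90b1, downstream: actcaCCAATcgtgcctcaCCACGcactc
Dnajc3: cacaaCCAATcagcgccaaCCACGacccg
Creld2: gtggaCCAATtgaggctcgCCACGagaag
Canx: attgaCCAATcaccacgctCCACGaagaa
Syvn1: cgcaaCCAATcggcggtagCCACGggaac
Dnajb11, ERSE-II: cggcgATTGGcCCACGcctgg
Herpud1, ERSE-II: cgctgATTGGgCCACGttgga

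The Hspa5 run lies at chr2:34772020-34772048 (plus strand), with its motif 65 to 47 bases before the start. The Hsp90b1 runs lie at chr10:86705633-86705661 (minus strand) and chr10:86705528-86705556 (plus strand). Their motifs stand 212 to 194 and 107 to 89 bases before the start. The Dnajc3 run lies at chr14:118937822-118937850 (plus), the Creld2 run at chr15:88819515-88819543 (minus), the Canx run at chr11:50325795-50325823 (minus) and the Syvn1 run at chr19:6046527-6046555 (plus). The ERSE-II of Herpud1 lies at chr8:94386372-94386392 (plus), 52 to 42 bases before the start. That of Dnajb11 lies at chr16:22857847-22857867 (plus), 8 to 18 bases after the start by the RefSeq model. The other ERSE members were Pdia6, Calr and Derl3. The UPRE letters TGACGTGG, which contain the CCACG of the ERSE when read on the other strand, stood in 1 member, Sec24d (193 genes, 0.714%). The ATF4-C/EBP letters TTGCATCA stood in 1 member, Herpud1 (279 genes, 1.03%). Such matches describe letters in a window and are not shown to be used in these livers.

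The deposited tables give group means of normalised reads. Reads of single libraries were recovered from these means, and each library has a letter within its group, with a for the largest size factor and c for the smallest. The letters are not the labels' replicate numbers. Between 6482338 and 14939063 reads were recovered per library, of which 76101 to 117317 belonged to the members. All 37 members were recovered in all 9 libraries. Normal library c stood apart: on the log2 scale it was above the mean of the other normal libraries in 33 of 37 members (median deviation 0.37). Its summed neutrophil markers came to 7283 normalised reads against 61.4 and 148. Model library c stood apart in other genes, with summed stellate cell markers of 4042 against 15560 and 13999. Not all of these markers were low there. Col1a1 (687 against 4916 and 4035) and Col3a1 (1770 against 9030 and 8482) were, and Des, Pdgfrb and Acta2 were also lowest there. Lrat (391 against 152 and 119) and Reln (702 against 391 and 464) were highest there. Summed cholangiocyte markers were also lowest in model library c (1981 against 9539 and 10836). Calls gained or lost without these libraries are given beside the member. Where not stated otherwise, values are normalised reads on a scale common to the 9 libraries, and differences are of log2(value + 1), tested two-sided with limma over all genes with a threshold of 0.05 on the adjusted p.

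Many folding members were lower in the model group than in normal livers, and many were higher with SAR than in the model. Of the 37 members, 15 fell, 1 rose and 21 did not pass in model against normal, where 19.1% of 12582 genes tested fell, 19.9% rose and thus 39.0% were called. The authors' deposited DESeq test called 11 members lower and 1 higher there, where it called 13.3% of genes lower and 16.3% higher. The median member differed by -0.55 on the log2 scale, against 0.03 over all genes tested. In SAR against model, 14 of 37 members rose and 0 fell, where 13.2% of 12474 genes rose and 16.1% fell (29.3% called). The median member was 0.60 higher, against 0.01 over all genes. At an unadjusted p under 0.05 there were 24 higher and 0 lower in that comparison, where 20.2% of genes were higher and 22.5% lower, and the authors' deposited DESeq test called 10 higher and 0 lower, where it called 8.78% of genes higher and 12.4% lower. The model libraries serve both comparisons, so the 2 directions are not independent of each other. Between 8 and 18 members were lower in model against normal when each library was left out in turn, with 8 without model library b and 9 without normal library a. Over all genes tested, 1188 of 12435 were lower without model library b and 1270 of 12651 without normal library a. In SAR against model between 5 and 19 rose, with 5 without model library a, without model library b or without SAR library b. Over all genes tested, 732 of 12310, 632 of 12353 and 655 of 12570 rose in those fits, in that order. Without model library c, 2547 of 12470 genes rose. On the log2 scale, SAR library b was above the mean of the other 2 SAR libraries in 29 of 37 members. Without normal library c and model library c together, 18 members fell and 4 rose in model against normal, the 4 being Sec61b, Ern1, Dnajc10 and Ssr1. Over all genes tested in that fit, 3573 of 12666 fell and 3776 rose. The 4 rises did not exceed that share.

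**Figure D1:**
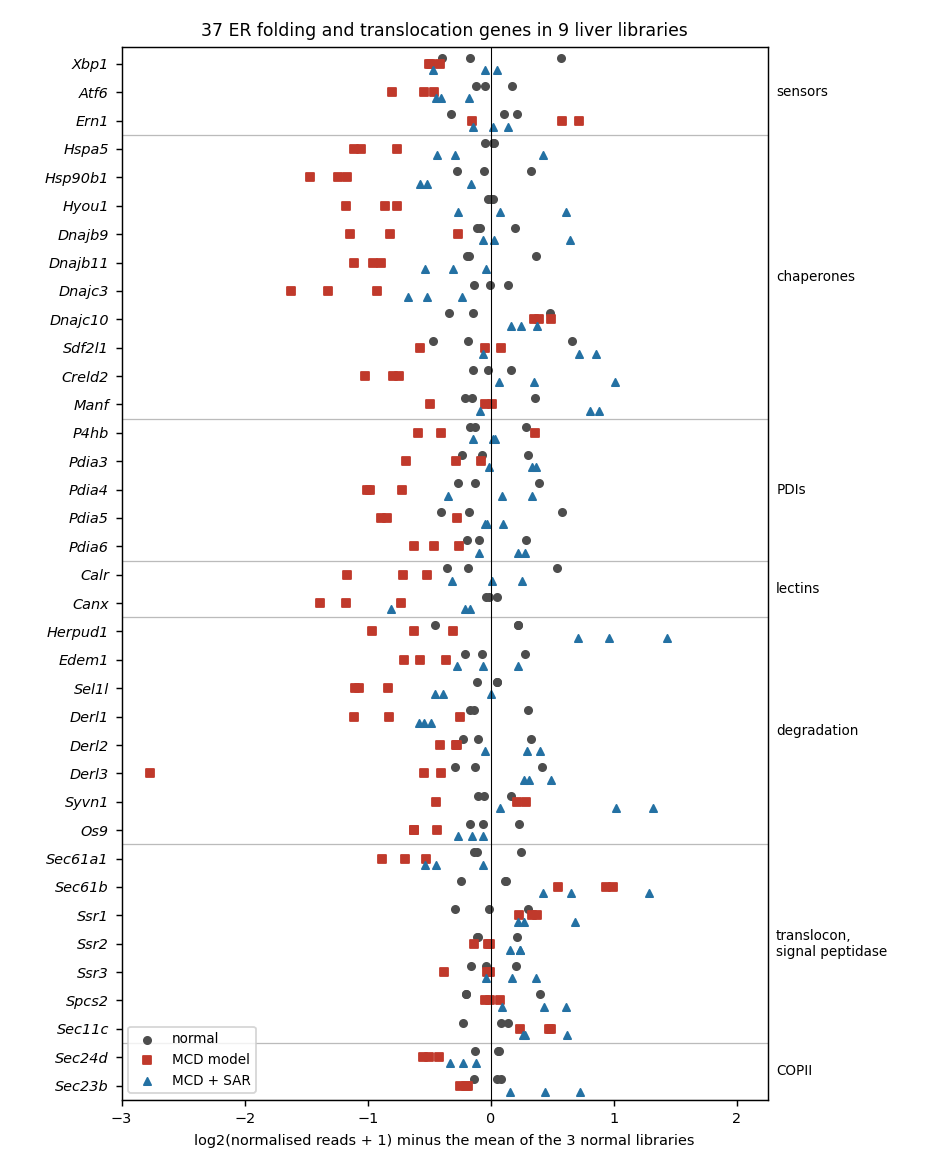
Each point is one liver library, placed by its log2(normalised reads + 1) minus the mean of the 3 normal libraries (x axis, log2 units) for each of 37 genes (rows, grouped by role). Model libraries (squares) lie left of all normal libraries (circles) for 22 genes and right of them for 2, and SAR libraries (triangles) lie right of all model libraries for 23 genes. Over all genes tested these shares were 26.5% and 27.4% in model against normal and 20.9% in SAR against model.

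At the median, hepatocyte marker transcripts moved in the same directions as the chaperones. Of 10 hepatocyte markers, 3 (Apoc3, Serpina1a and Hnf4a) could be split between libraries. Their summed level ran from 59685 to 60145 normalised reads in the normal libraries, from 30208 to 40259 in the model and from 69275 to 82011 with SAR. Limma called 1 of these 3 lower in the model (Hnf4a, log2 -1.36, adjusted p = 0.00474) and 2 higher in SAR against model. In the authors' deposited table, 5 of the 10 markers were lower and 0 higher in model against normal (median log2 -0.69), and 8 were higher and 0 lower in SAR against model (median 1.003). Ahsg (log2 0.0088) and Alb (log2 -0.19) changed least in model against normal. No hepatocyte marker was at 0. Their part in the results on the members was not tested. In bulk liver, fewer cells of a type and less RNA per cell cannot be told apart. Summed macrophage markers (7 of 8 listed genes were in the tables) moved the other way. The sum ran from 2914 to 3073 in normal libraries, 12247 to 13524 in the model and 3665 to 5102 with SAR. Of 7 macrophage markers tested, 5 rose and 1 fell in the model, and 0 rose and 6 fell in SAR against model. The 1 that fell in the model was Clec4f (log2 -1.12, limma adjusted p = 0.0037), and Adgre1 did not pass there (log2 -0.31). Plasma cells, secretory cells rich in these proteins, had markers that differed in direction. Of 4 plasma cell markers tested, Jchain (log2 2.47, limma adjusted p = 0.0301) and Prdm1 (log2 2.27, limma adjusted p = 0.0128) rose in the model and fell with SAR, and Sdc1 fell in the model (log2 -1.66, limma adjusted p = 0.00422). Irf4 did not pass in the model (log2 1.54, limma adjusted p = 0.132). The sum of 6 of 9 listed plasma cell markers followed Sdc1, its most abundant gene, from 3973 to 6062 in normal libraries to 1947 to 3516 in the model and 1787 to 2420 with SAR. In normal libraries Sdc1 stood at 4508 ± 778 and Jchain at 282 ± 327 (SD, n = 3), so the sum describes Sdc1 rather than the list. Whether the Sdc1 reads came from plasma cells was not tested. Summed cholangiocyte markers (7 of 7) ran from 463 to 835 in normal libraries, 1981 to 10836 in the model and 759 to 1686 with SAR, with 6 of 6 tested higher in the model and 4 of 6 lower in SAR against model. The 1981 was model library c. Most of each model sum was Spp1, at 8396, 9537 and 1770 in model libraries a, b and c. Pancreatic acinar markers (9 of 10) summed to between 104 and 486 in every library.

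Of the 3 sensor genes, 1 fell in the model, where 19.1% of all genes tested fell. In SAR against model 0 passed, where 29.3% of all genes were called. Xbp1 (ENSMUSG00000020484), the factor that Ire1 activates by splicing its mRNA, stood at 2964, 2534 and 4962 normalised reads in the normal libraries, 2383, 2364 and 2513 in the model and 2415, 3465 and 3243 with SAR. The model libraries lay just below the normal ones, and normal library c was above every other library. Xbp1 did not pass in model against normal (log2 -0.47, SE 0.26, limma adjusted p = 0.18) or in SAR against model (log2 0.33, SE 0.19, limma adjusted p = 0.207). Reads per gene do not separate spliced from unspliced Xbp1. Atf6 (ENSMUSG00000026663), the sensor that is cut to release a transcription factor, stood at 889, 845 and 1036 in normal, 527, 631 and 669 in model and 694, 812 and 676 in SAR libraries. The 3 groups did not overlap, with the SAR libraries between the other two groups. It fell in model against normal (log2 -0.60, SE 0.15, limma adjusted p = 0.0181), and did not pass in SAR against model (log2 0.28, SE 0.16, limma adjusted p = 0.203). The call in the model was lost without normal library a, model library a or model library b and in the authors' deposited DESeq test. Ern1 (ENSMUSG00000020715), which encodes Ire1, stood at 378, 261 and 352 in normal, 536, 487 and 293 in model and 360.3, 330.3 and 295 in SAR libraries. Model libraries a and b were above all others and model library c was within the normal range. Ern1 did not pass in model against normal (log2 0.38, SE 0.25, limma adjusted p = 0.265) or in SAR against model (log2 -0.35, SE 0.23, limma adjusted p = 0.269). Without model library c it passed in both, higher in the model (log2 0.64, limma adjusted p = 0.0313) and lower with SAR (log2 -0.62, limma adjusted p = 0.0123).

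Chaperones changed in both comparisons. Of 10 genes of the Hsp70 and Hsp90 systems, 7 fell and 0 rose in the model (median log2 -0.90), and 7 rose and 0 fell in SAR against model (median 0.87). They were the same 7: Hspa5, Hsp90b1, Hyou1, Dnajb9, Dnajb11, Dnajc3 and Creld2. The other 3, Dnajc10, Sdf2l1 and Manf, passed in neither comparison. Over all genes tested, 19.1% fell in the model and 13.2% rose in SAR against model.

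Hspa5 (ENSMUSG00000026864) encodes BiP, the Hsp70 chaperone of the organelle, which also holds the sensors inactive. It stood at 12699.6, 12027 and 12609 normalised reads in normal, 5973, 7325 and 5771 in model and 10172, 16661 and 9206 in SAR libraries. The model libraries lay below all others, whereas SAR library b was above and SAR libraries a and c below every normal library. Hspa5 fell 1.97-fold in the model (log2 -0.98, SE 0.24, limma adjusted p = 0.0168) and rose 1.86-fold in SAR against model (log2 0.90, SE 0.29, limma adjusted p = 0.0464). This second call was narrow. It was lost without model library a or b or any 1 of the SAR libraries, with limma adjusted p between 0.069 and 0.162, and with no filter on low values, with upper-quartile scaling and in the authors' deposited DESeq test. The call in the model did not hold when either of normal libraries a and b, or model library b, was left out (limma adjusted p between 0.0562 and 0.0704).

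Hsp90b1 (ENSMUSG00000020048) encodes GRP94, the Hsp90 of the organelle. It stood at 4855, 4176 and 6346 in normal, 1822, 2242 and 2140.2 in model and 3523, 4508 and 3386 in SAR libraries. The model libraries lay below all others, and only SAR library b reached into the normal range. Hsp90b1 had the largest fall of the members (log2 -1.30, SE 0.21, limma adjusted p = 0.0043) and rose in SAR against model (log2 0.89, SE 0.19, limma adjusted p = 0.00989). Both calls held without each library in turn. Exons of Hsp90b1 overlap other genes over 632 bases in GENCODE M21, among them 1810014B01Rik on the other strand, and no strand setting is stated for the counts.

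Hyou1 (ENSMUSG00000032115), whose product helps BiP to exchange its nucleotide, stood at 1711, 1677 and 1732 in normal, 942, 1006 and 754 in model and 1803, 2606 and 1418 in SAR libraries. The normal libraries lay within a narrow range, above every model library. It fell in the model (log2 -0.93, SE 0.15, limma adjusted p = 0.0042) and rose with SAR against model (log2 1.09, SE 0.23, limma adjusted p = 0.0105), and both calls held without each library in turn.

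Creld2 (ENSMUSG00000023272), an inducible protein of the organelle with EGF-like domains, stood at 586, 725 and 638 in normal, 373, 386 and 318 in model and 827, 1302 and 678 in SAR libraries. SAR libraries a and b were above every normal library. Creld2 fell in the model (log2 -0.86, SE 0.14, limma adjusted p = 0.00484) and rose 2.55-fold in SAR against model (log2 1.35, SE 0.23, limma adjusted p = 0.00474). Both calls held without each library in turn.

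The J-domain proteins, which hand substrates to BiP, fell in 3 of 4 cases. Dnajc3 (ENSMUSG00000022136), which encodes p58IPK, stood at 3660.0, 3336 and 4051 in normal, 1192, 1471 and 1933 in model and 2303, 3126 and 2569.6 in SAR libraries. The 3 groups did not overlap, with the SAR libraries in between. Dnajc3 fell in the model (log2 -1.29, SE 0.21, limma adjusted p = 0.00439) and rose with SAR against model (log2 0.84, SE 0.22, limma adjusted p = 0.0207). Dnajb11 (ENSMUSG00000004460), which encodes ERdj3, stood at 1338, 1349 and 1978 in normal, 708, 786 and 824 in model and 1056, 1486 and 1237 in SAR libraries. Its model libraries lay below all others, and it fell in the model (log2 -0.99, SE 0.18, limma adjusted p = 0.00679) and rose with SAR (log2 0.71, SE 0.17, limma adjusted p = 0.0148). Dnajb9 (ENSMUSG00000014905), which encodes ERdj4, stood at 827, 813 and 1007 in normal, 396, 499 and 732 in model and 896, 1373 and 841 in SAR libraries. Model library c was the nearest to the normal range. Dnajb9 fell in the model (log2 -0.74, SE 0.23, limma adjusted p = 0.037) and rose with SAR (log2 0.97, SE 0.26, limma adjusted p = 0.0248). Its fall did not hold when any 1 of the normal libraries or model library a or b was left out. The rises of Dnajc3, Dnajb11 and Dnajb9 in SAR against model were each lost without model library a, model library b or SAR library b, that of Dnajc3 also without SAR library c, and that of Dnajb9 also in the authors' deposited DESeq test.

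Dnajc10, a J-domain protein that also reduces disulfides, stood at 400.0 ± 125 in normal, 517 ± 25.2 in model and 466 ± 34.9 in SAR libraries (SD, n = 3). Its direction in the model was opposite to that of its group (log2 0.41, 95% interval -0.09 to 0.91), and without normal library c it passed as higher (log2 0.65, limma adjusted p = 0.013). Sdf2l1, a partner of ERdj3, and Manf, a secreted protein that binds BiP, differed by -0.18 and -0.18 in the model. In SAR against model they differed by 0.71 (limma adjusted p = 0.0763) and 0.74 (limma adjusted p = 0.0666). For both, SAR libraries a and b were above every normal and model library and SAR library c was not, and both passed in SAR against model without SAR library c.

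**Figure D2:**
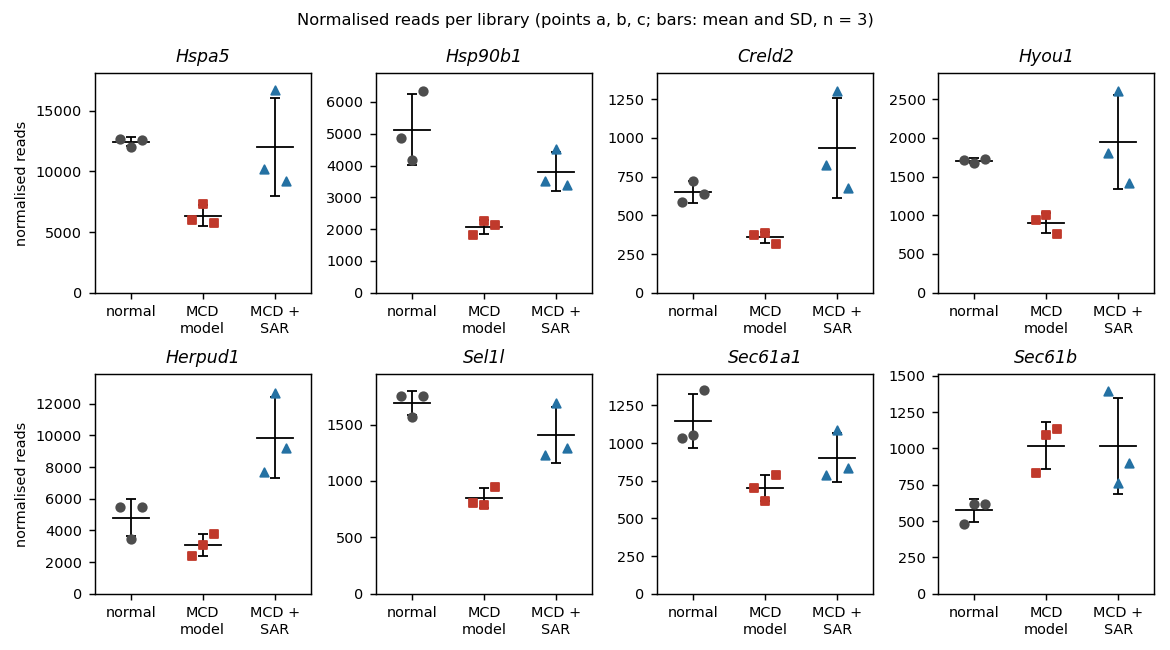
Normalised reads (y axis, linear from 0) of 8 genes in each normal, model and SAR library, with points in the order a, b, c and bars for the mean and SD of 3 libraries. Hspa5, Hsp90b1, Creld2, Hyou1 and Sel1l are lowest in the 3 model libraries, Herpud1 is highest in the 3 SAR libraries, and Sec61b is lowest in the 3 normal libraries.

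Among the disulfide isomerases, which form and rearrange disulfide bonds, 1 of 5 fell in the model and 3 of 5 rose in SAR against model, with none in the opposite direction. Over all genes tested, 19.1% fell in the model and 13.2% rose in SAR against model, so that the count in the model was near the share over all genes. Pdia4 (ENSMUSG00000025823), which encodes ERp72, stood at 2331, 2118 and 3355 in normal, 1293, 1547 and 1266 in model and 2719, 3217 and 2007 in SAR libraries. The model libraries lay below all others and the SAR libraries spanned nearly the normal range. Pdia4 fell in the model (log2 -0.91, SE 0.21, limma adjusted p = 0.0131) and rose with SAR against model (log2 0.95, SE 0.21, limma adjusted p = 0.0108), and both calls held without each library in turn. Pdia5 (log2 0.70, limma adjusted p = 0.0237) and Pdia6 (log2 0.60, limma adjusted p = 0.0382) also rose with SAR. Both calls were lost without model library a, model library b, SAR library b or SAR library c, that of Pdia6 also without SAR library a, with upper-quartile scaling and in the authors' deposited DESeq test, and that of Pdia5 in a fit of all 9 libraries. In the model these 2 differed by -0.67 and -0.45 and did not pass. Pdia5 passed there as lower without model library c (log2 -0.87, limma adjusted p = 0.0416), without normal library c and model library c together (limma adjusted p = 0.00288) and in a fit of all 9 libraries (limma adjusted p = 0.0499). Pdia3, the partner of the lectin chaperones, differed by -0.35 in the model and 0.60 in SAR against model (limma adjusted p = 0.0926). P4hb, the founding isomerase and a subunit of both collagen prolyl 4-hydroxylase and the microsomal triglyceride transfer protein, stood at 17986, 18476 and 24651 in normal, 13389, 15269 and 25841 in model and 20625, 20448 and 18269 in SAR libraries. Model library c was above every other library while model libraries a and b were below them. P4hb passed in no comparison (limma adjusted p = 0.691 in model against normal).

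The lectin chaperones hold glycoproteins in the folding cycle. Canx (ENSMUSG00000020368), the membrane-bound calnexin, stood at 4276, 4099 and 4030.1 in normal, 1579, 1826 and 2495 in model and 2354, 3669 and 3579 in SAR libraries. All normal libraries were above all others, and SAR library a overlapped the model range. Canx fell in the model (log2 -1.10, SE 0.21, limma adjusted p = 0.00674), a call that held without each library in turn, and did not pass in SAR against model (log2 0.72, SE 0.24, limma adjusted p = 0.0522). It passed there without model library c (limma adjusted p = 0.00803) or without SAR library a (limma adjusted p = 0.0273). Calr, the soluble calreticulin, stood at 12482 ± 4367 in normal, 7012 ± 1539 in model and 12015 ± 2326 in SAR libraries (SD, n = 3). Its model libraries lay below all others, but it passed neither in the model (log2 -0.80, limma adjusted p = 0.0893) nor in SAR against model (log2 0.80, limma adjusted p = 0.0578). The authors' deposited DESeq test called Calr higher with SAR (adjusted p = 0.0144).

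Of the 8 degradation genes, 3 fell and 0 rose in the model (median log2 -0.60), and 3 rose and 0 fell in SAR against model (median 0.65). They were Sel1l, Edem1 and Os9 in the model, and Herpud1, Sel1l and Derl2 with SAR. The shares over all genes tested were 19.1% lower in the model and 13.2% higher in SAR against model. Herpud1 (ENSMUSG00000031770), which organises the degradation complex around the ligase Hrd1, stood at 5495, 3443 and 5499 in normal, 2403, 3049 and 3795 in model and 7701, 12699.7 and 9182 in SAR libraries. Each SAR library was above every normal library, and the normal and model ranges overlapped through normal library b. Herpud1 had the largest rise of the members in SAR against model, 3.23-fold (log2 1.69, SE 0.27, limma adjusted p = 0.00332), and this held without each library in turn. It did not pass in the model (log2 -0.64, SE 0.27, limma adjusted p = 0.0937) and was 2.05-fold higher in SAR against normal without passing (log2 1.04, SE 0.26, limma adjusted p = 0.0668). Without model library c it passed as lower in the model (log2 -0.80, limma adjusted p = 0.041).

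Sel1l (ENSMUSG00000020964), the adaptor of Hrd1, stood at 1756, 1569 and 1758 in normal, 804, 787 and 948 in model and 1234, 1693 and 1295 in SAR libraries. The model libraries lay below all others. Sel1l fell in the model (log2 -1.01, SE 0.14, limma adjusted p = 0.00277) and rose with SAR (log2 0.74, SE 0.17, limma adjusted p = 0.0138). The fall held without each library in turn, and the rise was lost when model library a, model library b or SAR library b was left out. The ligase Hrd1 itself is encoded by Syvn1 (ENSMUSG00000024807). It stood at 801 ± 82.7 in normal, 829 ± 211 in model and 1486 ± 587 in SAR libraries (SD, n = 3) and passed in no comparison (log2 0.02 in the model, 0.81 in SAR against model). SAR libraries a and b were above every other library. Without SAR library c, Syvn1 passed as higher in SAR against model (log2 1.17, limma adjusted p = 0.0231).

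The lectins Edem1 (log2 -0.55, limma adjusted p = 0.0424) and Os9 (log2 -0.56, limma adjusted p = 0.0399), which pick out trimmed glycoproteins, fell in the model. Both calls were lost without any 1 of the normal libraries or without model library a or b, with upper-quartile scaling and in the authors' deposited DESeq test, and that of Os9 also with no filter on low values. In SAR against model Edem1 differed by 0.53 (limma adjusted p = 0.0523) and Os9 by 0.42 (limma adjusted p = 0.0869). Both passed there as higher without model library c, Edem1 with log2 0.62 (limma adjusted p = 0.0185) and Os9 with log2 0.48 (limma adjusted p = 0.036). The Derlins are membrane proteins of the route back to the cytosol. Derl2 rose with SAR (log2 0.56, SE 0.16, limma adjusted p = 0.0305), which did not hold when model library a or b or SAR library a or b was left out or in the authors' deposited DESeq test. Derl1 stood at 2511 ± 475 in normal, 1542 ± 486 in model and 1713 ± 56.4 in SAR libraries (SD, n = 3), and its difference in the model narrowly missed the threshold (log2 -0.74, limma adjusted p = 0.0511). Derl1 passed as lower without model library c (log2 -0.98, limma adjusted p = 0.00751), without normal library c and model library c together (limma adjusted p = 0.000313), in a fit of all 9 libraries (limma adjusted p = 0.0215) and with a pseudocount of 5 (limma adjusted p = 0.0499). It passed as higher in SAR against model without model library c (log2 0.46, limma adjusted p = 0.0403). Derl1 was the member with the lowest value in SAR against normal (log2 -0.54, limma adjusted p = 0.0857). Derl3 (ENSMUSG00000009092) was the member with the fewest reads, at 25.9, 29.1 and 43.0 in normal, 21.6, 3.82 and 23.9 in model and 45.3, 38.7 and 39.7 in SAR libraries. The model libraries lay below all others, with model library b far below the rest. Derl3 did not pass in the model (log2 -1.25, SE 0.67, limma adjusted p = 0.17) or in SAR against model (log2 1.62, SE 0.62, limma adjusted p = 0.0763), and its intervals in these 2 comparisons were the widest of the members. Without model library c it passed as higher with SAR (log2 2.04, limma adjusted p = 0.023).

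The translocon and signal peptidase genes went in both directions in the model. Of 7 genes, 1 fell (Sec61a1) and 1 rose (Sec61b), with a median log2 of 0.00. Over all genes tested 19.1% fell and 19.9% rose there, so that neither count exceeded the share over all genes. In SAR against model 0 of 7 passed (median 0.29), where 13.2% of all genes rose. At an unadjusted p under 0.05, 1 of 7 was higher there, where 20.2% of all genes were higher. Sec61a1 (ENSMUSG00000030082), the pore of the channel, stood at 1034, 1052 and 1351 in normal, 701, 617 and 789 in model and 785, 1089 and 833 in SAR libraries. It fell in the model (log2 -0.70, SE 0.16, limma adjusted p = 0.0141), and did not pass in SAR against model (log2 0.38, SE 0.17, limma adjusted p = 0.134). The fall was not called without model library b. Its exons overlap Gm44170, on the other strand, over 549 bases. Sec61b (ENSMUSG00000053317), a small subunit of the same channel, is given in full because it was the single member that rose in the model, a choice made after its values were seen. It stood at 482, 619 and 619 in normal, 832, 1092 and 1135 in model and 1394, 763 and 898 in SAR libraries, so that all 3 normal libraries were below all others. Sec61b rose 1.77-fold in the model (log2 0.82, SE 0.18, limma adjusted p = 0.0105), a call that held without each library in turn, and did not differ in SAR against model beyond its error (log2 -0.02, 95% interval -0.55 to 0.52). A gene with a near-identical transcript, Gm10320 (98.3% identity over 474 bases), held at most 2.56 normalised reads in any library, and processed pseudogenes such as Gm5870 (95.7% identity over 282 bases) could share its reads.

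The subunits of the translocon-associated complex, Ssr1, Ssr2 and Ssr3, differed by 0.31, -0.06 and -0.14 on the log2 scale in the model, and the signal peptidase genes Spcs2 and Sec11c by 0.00 and 0.40. None of the 5 passed, and none did so in SAR against model, where they ranged from 0.01 (Sec11c) to 0.39 (Spcs2). The intervals in the model ranged from -0.58 to 0.30 for Ssr3 to 0.03 to 0.76 for Sec11c. Ssr1 passed as higher in the model when normal library c and model library c were both left out (log2 0.45, limma adjusted p = 0.0154), and Sec11c with upper-quartile scaling (log2 0.49, limma adjusted p = 0.0383). Spcs2 has a pseudogene copy, Spcs2-ps, of 95.8% identity.

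The COPII genes encode parts of the inner coat of vesicles that leave the organelle. Sec24d, which binds cargo, fell in the model (log2 -0.49, SE 0.13, limma adjusted p = 0.0222) and did not pass in SAR against model (log2 0.28). That call was lost without normal library a or b or model library a or b and in the authors' deposited DESeq test. Sec23b, its partner in the coat, did not pass in the model (log2 -0.21) and rose with SAR (log2 0.67, SE 0.17, limma adjusted p = 0.0203). That call was lost without model library a, model library b or SAR library b, and in the authors' deposited DESeq test. Sec23b stood at 362 ± 29.0 in normal, 312 ± 7.88 in model and 497 ± 97.7 in SAR libraries (SD, n = 3).

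**Figure D3:**
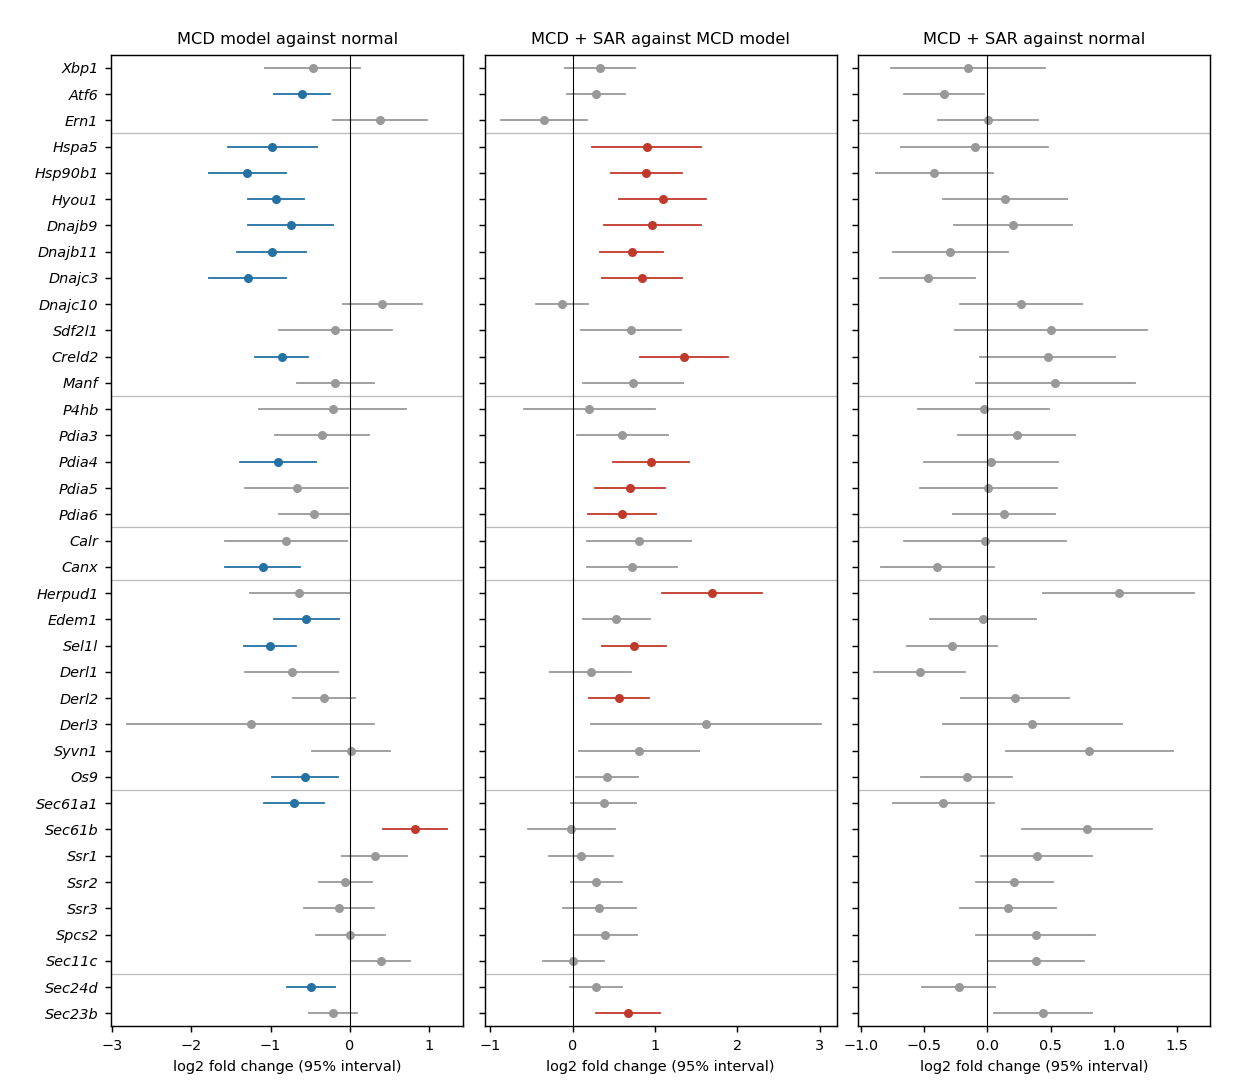
Log2 fold changes of 37 genes (x axes, with a different scale in each panel; bars are 95% intervals from limma) in model against normal, SAR against model and SAR against normal. Blue marks genes that fell and red those that rose at an adjusted p of 0.05, 15 and 1 in the first panel, 0 and 14 in the second, and none in the third.

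Role means are set side by side per library. The mean of the 10 chaperones stood at -0.75, -0.62 and -0.73 (log2, relative to the normal group) in model libraries a, b and c, whereas the mean of the 7 translocon and signal peptidase genes stood at -0.03, 0.14 and 0.17. Their difference was -0.72, -0.76 and -0.90 in the model libraries against 0.06, -0.09 and 0.03 in the normal ones. With SAR it was -0.42, 0.17 and -0.34, so that SAR library b lay above and SAR libraries a and c below the normal values. The means of the degradation genes in the model libraries were -0.64, -0.82 and -0.41, and those of the sensors -0.19, -0.15 and -0.34. These means are descriptions of lists whose members were chosen by name, with no test.

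**Figure D4:**
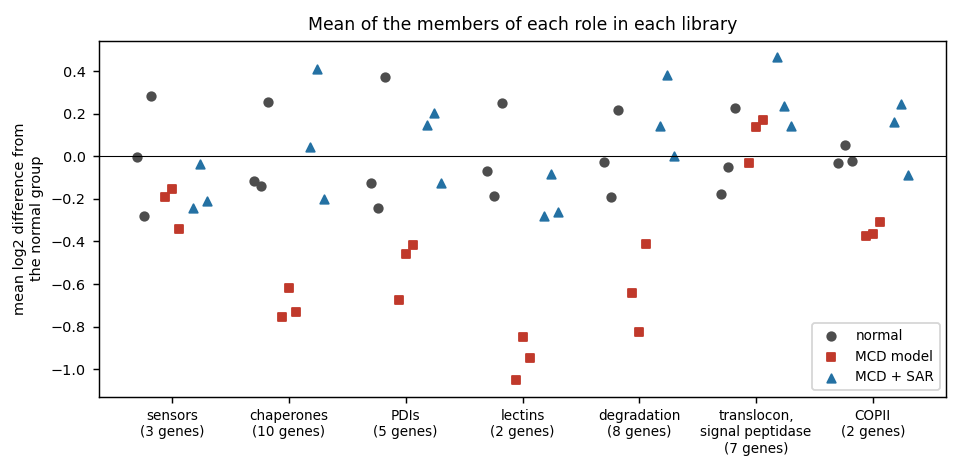
Mean log2 difference from the normal group (y axis) over the genes of each role (x axis, number of genes in brackets), with 1 point per library. Chaperones, disulfide isomerases, lectins, degradation and COPII genes are below every normal library in all 3 model libraries, whereas the translocon and signal peptidase genes of the model libraries lie at -0.03, 0.14 and 0.17, within the normal range.

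The calls of the members with and without an ERSE in their window are given as counts. In the model, 5 of 9 members with an ERSE fell and 0 rose (median log2 -0.98), and 7 of 21 with a window and no ERSE fell and 1 rose (median -0.35). In SAR against model, 5 of 9 with an ERSE rose (median 0.84) and 8 of 21 without one rose (median 0.53). The ERSE members that passed in the model were Hspa5, Hsp90b1, Dnajc3, Creld2 and Canx, shown above, and those that did not were Pdia6, Calr, Derl3 and Syvn1. The 2 ERSE-II members, Dnajb11 and Herpud1, are counted among the 21 without an ERSE. Dnajb11 fell in the model, and both rose in SAR against model. Herpud1, which also holds the TTGCATCA letters, was the member whose SAR values exceeded the normal ones by most. Over all genes tested, 19.1% fell in the model and 13.2% rose in SAR against model. The counts with and without an ERSE were made with the calls known.

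Per kilobase of exon, in GENCODE M21 since the annotation behind the counts is not known, the isomerase P4hb had the highest level of the members in the normal group (7120 ± 1298 normalised reads per kilobase, SD, n = 3). Calr (4334 ± 1516), Hspa5 (2943 ± 86.3), Pdia3 (2100 ± 413) and Herpud1 (2063 ± 508) followed. The intervals of mean ± SD overlapped between P4hb and Calr, between Calr and Hspa5, and between Pdia3 and Herpud1. The lowest levels were those of Derl3 (16.4 ± 4.55), Sec11c (40.0 ± 5.27) and Ern1 (40.4 ± 7.52). With SAR, Herpud1 reached 4227 ± 1101 per kilobase, beside 4172 ± 808 for Calr and 2841 ± 959 for Hspa5.

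Against normal livers, the SAR group showed 0 members higher and 0 lower, where 1.71% of 11619 genes rose and 1.82% fell (3.54% called). At an unadjusted p under 0.05, 5 members were higher and 3 lower, where 12.7% of genes were higher and 13.5% lower. The groups did not overlap for 8 members, 4 in each direction, where 15.8% of genes were higher and 17.5% lower without overlap, so that neither count exceeded the share over all genes. Herpud1, Sec61b, Sec11c and Sec23b were above, by 1.04, 0.79, 0.39 and 0.44 on the log2 scale. Atf6, Dnajc3, Canx and Derl1 were below, by -0.34, -0.47, -0.40 and -0.54. Hspa5 differed by -0.10 (95% interval -0.68 to 0.48) and Hsp90b1 by -0.42 (-0.88 to 0.04), intervals too wide to show that the groups were alike. Herpud1 passed without normal library c (log2 1.15, limma adjusted p = 0.0284) and Syvn1 without SAR library c (log2 1.17, limma adjusted p = 0.0491).

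Genes of the same pathways that are not members were read from lists drawn up by function. Their counts stand against the shares of all genes given above, 19.9% higher and 19.1% lower in model against normal and 13.2% and 16.1% in SAR against model. In the PERK branch, the arm that slows translation and induces stress factors, 5 of 10 genes rose and 0 fell in the model, and 0 rose and 3 fell in SAR against model. Nupr1, a stress-induced cofactor, stood at 12.2 ± 3.44 normalised reads in normal, 626 ± 24.8 in model and 57.6 ± 52.4 in SAR libraries (SD, n = 3). It rose in the model (log2 5.61, SE 0.23, limma adjusted p = 6.87e-05) and fell with SAR (log2 -3.76, SE 0.49, limma adjusted p = 0.00156). Atf3, a transcription factor of the same arm, stood at 58.5 ± 6.62, 731 ± 136 and 152 ± 12.0 in the same order, rising in the model (log2 3.61, SE 0.18, limma adjusted p = 0.000161) and falling with SAR (log2 -2.22, SE 0.17, limma adjusted p = 0.000239). In SAR against normal 2 of the 10 rose, Atf3 (log2 1.36, limma adjusted p = 0.0255) and Ddit3, which encodes CHOP (log2 1.43, limma adjusted p = 0.027). Atf4, the central factor of this arm, stood at 1346 ± 334, 1332 ± 114 and 1332 ± 29.5 in the 3 groups (adjusted p = 0.979 in model against normal, limma).

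Of 11 other sensors and related factors tested, 3 rose and 1 fell in the model and 1 rose and 1 fell in SAR against model. Creb3l3, a liver relative of Atf6, stood at 6358 ± 173 in normal, 2609.5 ± 1063 in model and 4381 ± 216 in SAR libraries (SD, n = 3). It fell in the model (log2 -1.36, SE 0.28, limma adjusted p = 0.00943) and rose with SAR (log2 0.84, SE 0.26, limma adjusted p = 0.0424). Creb3l1, the relative of Atf6 in matrix-producing cells, rose in the model (log2 3.51, limma adjusted p = 0.00503) and fell with SAR (log2 -2.18, limma adjusted p = 0.0123). Eif2ak3, which encodes Perk, rose in the model (log2 0.80, limma adjusted p = 0.00665) and did not pass in SAR against model (log2 -0.07). Summed stellate cell markers (7 of 7) ran from 220 to 1496 in normal, 4042 to 15560 in model and 1199 to 2971 in SAR libraries, and their part in the values of Creb3l1 was not tested.

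Other folding factors went both ways, with 10 of 29 higher and 5 lower in the model, and 6 higher and 2 lower in SAR against model. Those that rose most in the model were Ppic (log2 2.93, limma adjusted p = 0.00379), a cyclophilin, and Fkbp10 (log2 2.78, limma adjusted p = 0.0185), an isomerase of collagen folding. Those that fell most were Qsox1 (log2 -1.70, limma adjusted p = 0.0141), a sulfhydryl oxidase, and Ero1a (log2 -1.20, limma adjusted p = 0.00213), which reoxidises the disulfide isomerases. With SAR against model Ero1b (log2 1.20, limma adjusted p = 0.00165) and Sil1 (log2 0.85, limma adjusted p = 0.0233), an exchange factor of BiP, rose most. Selenom (log2 -2.04, limma adjusted p = 0.0309) and Ppic (log2 -1.88, limma adjusted p = 0.0132) fell.

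The other degradation genes included 12 of 23 lower and 1 higher in the model and 10 higher and 0 lower in SAR against model. Ubxn6 (log2 -2.18, limma adjusted p = 0.002) and Nploc4 (log2 -1.57, limma adjusted p = 0.00209), cofactors of the segregase p97, fell most in the model, and Edem2 rose (log2 0.69, limma adjusted p = 0.0185). The membrane ligases Rnf5 (log2 0.88, limma adjusted p = 0.014) and Rnf139 (log2 0.87, limma adjusted p = 0.0281) rose most with SAR. Nploc4 stayed lower in SAR against normal (log2 -1.06, limma adjusted p = 0.027), the single call of this list there.

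Of 20 other translocation genes, 7 fell and 0 rose in the model, and 2 of 19 rose with SAR. Srp54a (log2 -1.74, limma adjusted p = 0.0137), of the signal recognition particle, and Srpra (log2 -1.45, limma adjusted p = 0.00481), of its receptor, fell most. Sec63 (log2 0.70, limma adjusted p = 0.0128), the partner of the channel that recruits BiP, and Srp68 (log2 0.52, limma adjusted p = 0.0204) rose with SAR. Of 26 export and retrieval genes, 10 fell and 2 rose in the model, and 8 rose and 1 fell in SAR against model. Sar1b, the GTPase that starts coat assembly, fell in the model (log2 -1.19, limma adjusted p = 0.0302) and rose with SAR (log2 1.05, limma adjusted p = 0.034). Lman2, a cargo lectin, fell in the model (log2 -1.14, limma adjusted p = 0.00348), and Mia3, a cargo receptor for large proteins, rose with SAR (log2 1.02, limma adjusted p = 0.00789). Kdelr3, a receptor that returns resident proteins, went the other way, from 2.87 ± 1.75 in normal to 31.9 ± 15.5 in model and 2.39 ± 3.15 in SAR libraries (SD, n = 3), and Tmed3 also rose in the model (log2 0.53). Of 16 oligosaccharyl transferase and glycan trimming genes, 3 fell and 2 rose in the model, and 3 rose and 0 fell with SAR, so that in the model neither count exceeded the share over all genes. Ganab, which trims glucose from new glycans, fell in the model (log2 -0.85, limma adjusted p = 0.00365) and rose with SAR (log2 0.69, limma adjusted p = 0.0107).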

How the data were processed

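Liver RNA of 9 samples in 3 groups of 3 was measured by RNA sequencing. Per the labels' protocols, Trizol was used for total RNA and a NEBNext Ultra kit for the libraries. The submitters' processing notes name mm9 as the build. Aligner, counter, annotation and strand setting: not given in the sources here. The authors deposited 2 tables of group means. Per the file headers, a signal is the mean of a group's read counts after division by DESeq size factors. A deposited fold is a ratio of 2 such means, the deposited log2 is that of the fold, and the deposited p-values come from the authors' DESeq test.

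Whole reads per library were recovered by solving each long mean for the 3 read numbers that give it, with a constant for each library. A single solution was found for 16153 of 16153 genes tried in the normal group, 16104 of 16104 in the SAR group and, from both tables, 16147 of 16147 in the model group. Among means over 9000, 30 of 178 in the normal group and 26 of 156 with SAR had several solutions and were not split. The reads of 16438 of 16521 genes were thus known in all 9 libraries, and 16490 genes had a symbol. Recomputing size factors from these reads gave values within 0.241% of those deposited. Recovered totals leave out the most abundant genes of the normal and SAR groups.

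Each comparison was fitted on its own 6 libraries with limma 3.58.1 in R 4.3.3 (trended variance, log2(value + 1), genes with a mean of at least 10, two-sided, Benjamini-Hochberg over all genes tested, threshold 0.05). The deposited size factors were used for the deposited comparisons, and medians of ratios for SAR against normal and for the common scale, which moved fold changes by at most 0.02 on the log2 scale. The scripts were tested on simulated data. With 3 against 3 an exact permutation test cannot go below p = 0.1, so none was run. The members and all gene lists were chosen with earlier results of these data known. Every member could be named, with the value in each library for Xbp1, Atf6, Ern1, Hspa5, Hsp90b1, Sec61a1, Derl3 and the up to 6 called members of largest change in each comparison. Up to 2 genes in each direction were named from other pathway lists, and, outside this rule, Atf4, Ddit3 and Eif2ak3 for their place in the pathway and, with their values seen, Sec61b as the single rise in the model and P4hb, whose model libraries lay far apart, with the value in each library. Alternatives were another pseudocount, filter, scaling and set of libraries, a fit of all 9 libraries and the authors' test. Promoter windows were RefSeq's for GRCm38.p6, and exon lengths and overlaps those of GENCODE M21, so no mm9 coordinates were used.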

Additional observations from a re-analysis of the deposited data

How the results depend on the processing

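No paired analysis was possible because the recovered libraries carry no replicate number of the labels. The quasi-likelihood count test on recovered reads was not run, since the deposited values are group means, and calls of genes that are not members were not recomputed under the alternatives. No member called in model against normal or in SAR against model changed direction under any alternative run. In model against normal, 9 of 16 calls (Hsp90b1, Hyou1, Dnajb11, Dnajc3, Creld2, Pdia4, Canx, Sel1l and Sec61b) held in every setting run, and in SAR against model 5 of 14 did (Hsp90b1, Hyou1, Creld2, Pdia4 and Herpud1). When each library was left out in turn, members lower in model against normal numbered 8 to 18 and members higher 1 to 2. Of the 12401 to 12651 genes tested in those fits, 1188 to 2946 were lower and 1249 to 2848 higher. In SAR against model members higher numbered 5 to 19 and members lower 0 to 1, the 1 being Ern1 without model library c. There 632 to 2547 of the 12310 to 12570 genes tested were higher and 912 to 2614 lower. In SAR against normal members higher numbered 0 to 1 and members lower 0 to 0. In that comparison 4 to 540 of the 11559 to 11650 genes tested were higher and 1 to 546 lower. Members higher in model against normal came to 2 with upper-quartile factors, where Sec11c passed, and to 4 without normal library c and model library c. Over all genes tested, 2854 of 12600 and 3776 of 12666 were higher in these 2 settings. The other settings (a pseudocount of 5, no filter, a mean of at least 50, TMM factors, 1 fit of all 9 libraries) gave 14 to 17 members lower in model against normal and 13 to 15 higher in SAR against model, and upper-quartile factors 13 and 12. Over all genes tested the same settings gave 2300 to 2690 lower and 1542 to 1683 higher, and upper-quartile factors 2057 and 1320. Some members not called above passed in these settings: in model against normal Derl1 with a pseudocount of 5 and Derl1 and Pdia5 in 1 fit of all 9 libraries, and in SAR against model Calr with a mean of at least 50 and Canx in 1 fit of all 9 libraries. The authors' deposited test gave 11 lower and 1 higher in model against normal. Fits that leave out a library have 2 libraries in that group, and the cause of lost calls was not tested. Values of members not called changed sign 48 times over 18 pairs of member and comparison, in 0 cases with a call. Among them, log2 in SAR against normal with each library left out in turn ran from -0.35 to 0.13 for Xbp1, from -0.15 to 0.11 for Ern1 and from -0.37 to 0.066 for Hspa5. Depth limits Derl3 most, at 3.82 to 45.3 normalised reads per library.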
